A study of Mus musculus with 50 samples.

Results

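The genes described here are the collagen genes of the mouse, chosen as all genes whose symbol is Col, a number, the letter a and a number. They were 44 of the 55401 genes in the pgWAT 6 h table, and all 44 were also in the other tables. By the family's usual grouping 11 were fibrillar collagens, 8 were basement membrane collagens (Col4a1 to Col4a6, Col15a1 and Col18a1) and 25 were other collagens. Transcripts were counted by 3′ mRNA sequencing, which reads a tag near the 3′ end of each polyadenylated transcript, in 50 libraries from male mice that carried hM3DGq, a designer receptor that activates the cells bearing it when its ligand clozapine N-oxide (CNO) is given. TG mice were positive for Gfral-Cre, a recombinase expressed in the hindbrain neurons that carry the GDF15 receptor GFRAL, and WT mice were Cre-negative. All mice of both genotypes carried hM3DGq and received CNO at 1 mg/kg, and none without CNO was analysed here, so each comparison is TG against WT under CNO. There were 3 sets, namely quadriceps from clamped mice (10 TG, 10 WT), pgWAT, the perigonadal white fat depot, taken 1 h after CNO (9 TG, 9 WT) and pgWAT 6 h after CNO (6 TG, 6 WT). The labels give no age. Nor do they state whether replicates came from different mice, and p-values therefore reflect only how much these samples varied. The comparisons ask how activating these neurons bears on transcripts of the tissues, for which the series' design text gives lowered (quadriceps) and increased (pgWAT) glucose uptake, a measure not analysed here.

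Collagens are extracellular proteins made of 3 alpha chains wound into a triple helix, and many are assembled from the products of more than 1 gene. Fibrillar collagens (types I, III and V foremost) form the fibrils of connective tissue. Type IV collagen forms the network inside basement membranes, the thin sheets that surround adipocytes, muscle fibres and capillaries. Type VI collagen forms beaded filaments that link basement membranes to the fibrils around them and is abundant in adipose tissue and muscle. In adipose tissue fibroblasts, adipocytes, endothelial cells and mural cells all make collagens, and in bulk tissue fewer cells of a type and less RNA per cell cannot be told apart.

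Of the 44 genes, 17 had enough counts to be tested in all 3 sets, 28 in at least 1 and 16 in none. Those that could not be tested had at most 191 counts over the 20 quadriceps libraries, 351 over the 18 libraries at 1 h and 121 over the 12 at 6 h. Gene counts per library were 959980 to 2613672 in quadriceps, 976610 to 4852560 at 1 h and 9150496 to 12883462 at 6 h, so the 6 h set is the deepest. Levels are in CPM, counts set relative to a scaled library size, and since each transcript gives a tag whatever its length they are not divided by length. A count of 0 allows up to 3 counts, which is 1.03 to 3.30 CPM per library in quadriceps, 0.596 to 3.36 CPM at 1 h and 0.241 to 0.353 CPM at 6 h, for counting error only. Changes are given on the log2 scale, TG over WT, beside their standard error (SE). A gene rose or fell where edgeR gave an adjusted p under 0.05 in its quasi-likelihood test, adjusted by Benjamini and Hochberg's method over all genes tested in the set.

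Some libraries stood apart in transcripts of other tissues. At 1 h, 3 TG and 6 WT libraries had over 100 CPM of liver transcripts (Alb and 7 others) or of duct epithelium transcripts (Lrp2 and Cldn10), and at 6 h TG 2 had 1462 CPM of liver transcripts against 42.3 to 81.2 CPM in the 6 WT libraries. In quadriceps WT 2 and WT 10 had over 1000 CPM of inducible heat shock transcripts, and WT 2 also had 255 CPM of liver transcripts, where no other quadriceps library exceeded 3.99 CPM. The tissues carried the markers of their labels: adipocyte markers summed to 14721 to 22899 CPM in TG and 16260 to 29078 CPM in WT libraries at 6 h and skeletal muscle markers to 41003 to 49294 CPM in TG and 33400 to 57810 CPM in WT quadriceps.

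The promoters of the genes that differed between genotypes are shown here because Col4a1 and Col4a2, which both rose in pgWAT at 6 h, start beside each other. Col4a1 (ENSMUSG00000031502, chromosome 8, 11198423 to 11312826, minus strand) and Col4a2 (ENSMUSG00000031503, chromosome 8, 11312805 to 11449287, plus strand) are read in opposite directions from starts 21 bases apart in GENCODE vM21 on GRCm38. The same head-to-head order holds for Col4a3 and Col4a4, 72 bases apart on chromosome 1, and for Col4a5 and Col4a6, 1309 bases apart on chromosome X. Each window below runs from 250 bases before to 50 bases after the RefSeq start of the gene on GRCm38.p6, 5′ to 3′ on the gene's own strand. The Col27a1 window (63215162 to 63215461) lies inside the gene as GENCODE vM21 gives it (from 63214004), so the annotations place its start apart. Capitals mark GGGCGG, the GC box, and CCAAT, the CCAAT box, on either strand.
Col4a1, chr8:11312777-11313076, minus strand: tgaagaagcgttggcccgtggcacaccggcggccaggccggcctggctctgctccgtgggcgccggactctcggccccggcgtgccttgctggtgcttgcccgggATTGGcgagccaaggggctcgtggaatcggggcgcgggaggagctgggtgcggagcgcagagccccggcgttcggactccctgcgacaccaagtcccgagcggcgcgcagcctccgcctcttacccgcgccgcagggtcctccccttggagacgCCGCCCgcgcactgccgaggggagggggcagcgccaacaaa
Col4a2, chr8:11312555-11312854, plus strand: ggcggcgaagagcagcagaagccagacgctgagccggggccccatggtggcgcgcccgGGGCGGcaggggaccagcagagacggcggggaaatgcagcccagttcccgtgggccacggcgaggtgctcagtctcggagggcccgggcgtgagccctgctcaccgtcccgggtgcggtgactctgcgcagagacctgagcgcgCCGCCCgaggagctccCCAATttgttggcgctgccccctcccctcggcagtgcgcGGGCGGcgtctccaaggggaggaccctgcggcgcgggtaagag
Col4a4, chr1:82586800-82587099, minus strand: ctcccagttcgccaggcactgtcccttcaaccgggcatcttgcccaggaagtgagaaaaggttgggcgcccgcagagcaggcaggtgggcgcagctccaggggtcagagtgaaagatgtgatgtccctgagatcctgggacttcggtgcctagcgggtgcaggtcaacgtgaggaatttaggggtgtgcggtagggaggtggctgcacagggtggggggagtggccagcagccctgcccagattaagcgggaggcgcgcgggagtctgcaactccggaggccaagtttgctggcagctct
Col5a1, chr2:27886175-27886474, plus strand: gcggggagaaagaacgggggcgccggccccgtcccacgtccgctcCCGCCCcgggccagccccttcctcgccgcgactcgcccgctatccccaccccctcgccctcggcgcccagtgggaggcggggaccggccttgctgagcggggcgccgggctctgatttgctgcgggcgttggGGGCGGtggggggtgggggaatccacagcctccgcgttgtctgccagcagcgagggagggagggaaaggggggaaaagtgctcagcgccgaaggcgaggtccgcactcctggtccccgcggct
Col27a1, chr4:63215162-63215461, plus strand: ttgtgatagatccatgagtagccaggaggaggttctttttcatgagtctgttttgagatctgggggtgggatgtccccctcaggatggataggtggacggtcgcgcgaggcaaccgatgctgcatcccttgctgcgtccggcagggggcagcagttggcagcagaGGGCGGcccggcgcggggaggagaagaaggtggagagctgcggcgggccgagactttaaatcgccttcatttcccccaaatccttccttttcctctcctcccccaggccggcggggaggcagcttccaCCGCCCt

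The Col4a1 and Col4a2 windows share 78 bases. Col4a1 had 1 GC box and 1 CCAAT box and Col4a2 had 3 GC boxes and 1 CCAAT box, and 1 of the GC boxes lies in the bases they share. Col5a1 and Col27a1 had 2 GC boxes each, and none of these letters were in the Col4a4 window. The GC box was in 23 of 38 collagen windows (35 genes matched) and in 35.7% of all 32851 RefSeq windows, and the CCAAT box was in 13 collagen windows and 37.4% of all. TATAAA, the TATA box, was in 5 collagen windows and 13.6% of all, and in none of the windows shown. GC content was 74% for Col4a1, 73.7% for Col4a2, 63.3% for Col4a4, 75% for Col5a1 and 61.7% for Col27a1, with a median of 52.7% over all windows.

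**Figure D1:**
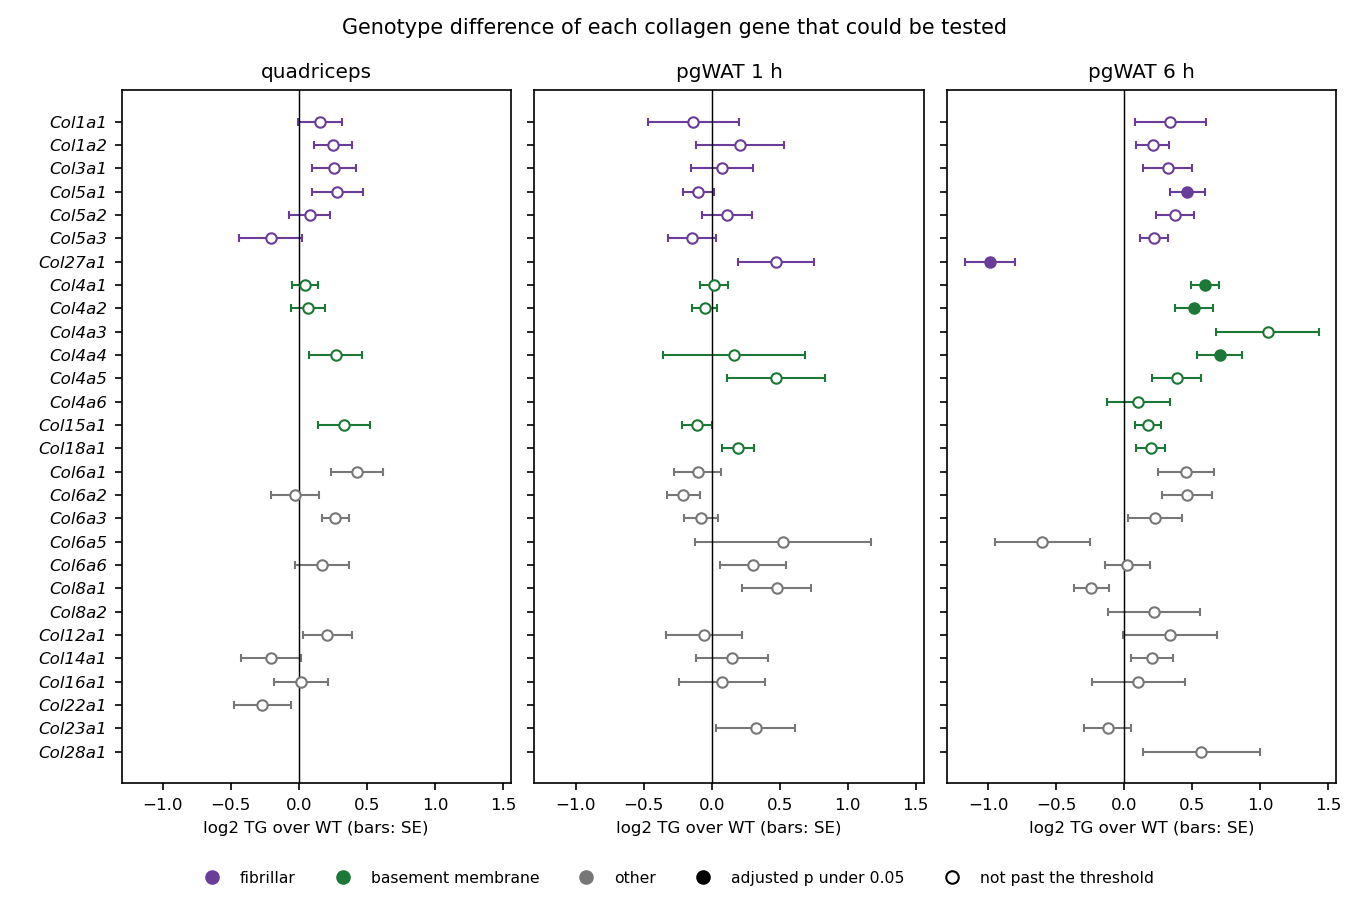
Log2 of TG over WT (x axis, bars show the SE) of every collagen gene that could be tested, in rows by class, for quadriceps, pgWAT at 1 h and pgWAT at 6 h. Filled points are past the adjusted threshold, and they are the 5 genes Col4a1, Col4a2, Col4a4, Col5a1 and Col27a1 in pgWAT at 6 h, with Col27a1 alone below 0.

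In pgWAT 6 h after CNO 3 chains of type IV collagen were higher in TG mice. Col4a1 and Col4a2, which together build the type IV network of nearly all basement membranes, rose, as did Col4a4, a chain of the more restricted alpha3-alpha4-alpha5 network, and Col5a1, a chain of the type V collagen that starts and thins fibrils. Col27a1, a minor fibrillar collagen known best from cartilage, fell. In all, 4 genes rose and 1 fell of 27 tested, which is 18.5%, where 14.4% of all 14359 genes tested passed (6.88% higher and 7.54% lower in TG). Of the 27, 23 had a log2 above 0, with a median of 0.22, whereas over all genes tested 50.2% were above 0 and the median was 0.00.

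Col4a1 had 1631, 1082, 1318, 1248, 1483 and 1478 CPM in the 6 TG libraries, against 913, 837, 989, 980, 1039 and 720 CPM in the 6 WT libraries. Every TG library lay above every WT library. Its means were 1373 ± 196 CPM in TG and 913 ± 117 CPM in WT (SD, n = 6 each), a log2 change of 0.59 (SE 0.10, adjusted p = 7.07e-04), or 1.5 times. Col4a2 had 754, 498, 635, 542, 629 and 731 CPM in TG, against 425, 344, 553, 501, 512 and 326 CPM in WT. The groups overlapped, with TG 2 and TG 4 below the highest WT library. The means were 632 ± 101 CPM in TG and 444 ± 94.0 CPM in WT, a log2 change of 0.51 (SE 0.14, adjusted p = 0.0268). The ratio of Col4a1 to Col4a2 tags was 2.18 ± 0.128 in TG and 2.09 ± 0.223 in WT, a difference smaller than its spread.

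Col4a4 (ENSMUSG00000067158, chromosome 1, 82448423 to 82586849) was far less abundant than Col4a1. It had 11.5, 12.8, 13.2, 13.8, 11.2 and 20.2 CPM in TG, against 6.26, 9.99, 7.35, 7.21, 10.7 and 9.42 CPM in WT, and the groups did not overlap. Its log2 change was 0.70 (SE 0.17, adjusted p = 0.00786). The other chains of its network were Col4a3, at 1.69 ± 0.438 CPM in TG and 0.807 ± 0.444 CPM in WT (log2 1.05, SE 0.38, adjusted p = 0.0733), and Col4a5, at 6.79 ± 1.13 CPM in TG and 5.21 ± 1.30 CPM in WT (log2 0.38, SE 0.18, adjusted p = 0.188), and neither passed. Col4a6, which joins Col4a5 in a further network, was at 3.47 ± 1.05 CPM in TG and 3.25 ± 0.743 CPM in WT (log2 0.10, SE 0.23, adjusted p = 0.821). The multiplexins Col15a1 and Col18a1, the source of endostatin, had log2 values of 0.17 (adjusted p = 0.268) and 0.19 (adjusted p = 0.266). All 8 basement membrane genes were tested, 3 rose, all had a log2 above 0, and the class median was 0.45. Over all genes tested 6.88% rose and 50.2% were above 0.

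Col5a1 (ENSMUSG00000026837, chromosome 2, 27886425 to 28039514) had 243, 155, 201, 166, 187 and 229 CPM in TG, against 138, 113, 148, 165, 173 and 120 CPM in WT. TG 2 and TG 4 lay within the WT range and the rest lay above it. Its means were 197 ± 34.8 CPM in TG and 143 ± 24.0 CPM in WT, a log2 change of 0.46 (SE 0.13, adjusted p = 0.0247). Its partner chains had log2 values of 0.37 for Col5a2 (adjusted p = 0.0995) and 0.22 for Col5a3 (adjusted p = 0.186). The bulk fibril genes did not pass: Col1a1 was at 414 ± 145 CPM in TG and 328 ± 99.95 CPM in WT (log2 0.34, adjusted p = 0.460), Col1a2 had a log2 of 0.21 (adjusted p = 0.304) and Col3a1 one of 0.32 (adjusted p = 0.298).

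Col27a1 (ENSMUSG00000045672, chromosome 4, 63214004 to 63334991) had 3.48, 2.62, 4.0, 2.09, 3.27 and 3.39 CPM in TG, against 4.88, 5.91, 6.60, 6.38, 6.17 and 7.41 CPM in WT. Every TG library lay below every WT library. Its level fell to 3.14 ± 0.679 CPM in TG, against 6.22 ± 0.836 CPM in WT, a log2 change of -0.99 (SE 0.18, adjusted p = 0.00116), with 623 counts over the 12 libraries. Groups that did not overlap were found for 3 of the 27 collagen genes tested, Col4a1, Col4a4 and Col27a1, and for 7.66% of all genes tested. Of the 7 fibrillar genes tested 1 rose and 1 fell, where 14.4% of all genes passed, and the class median log2 was 0.32.

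**Figure D2:**
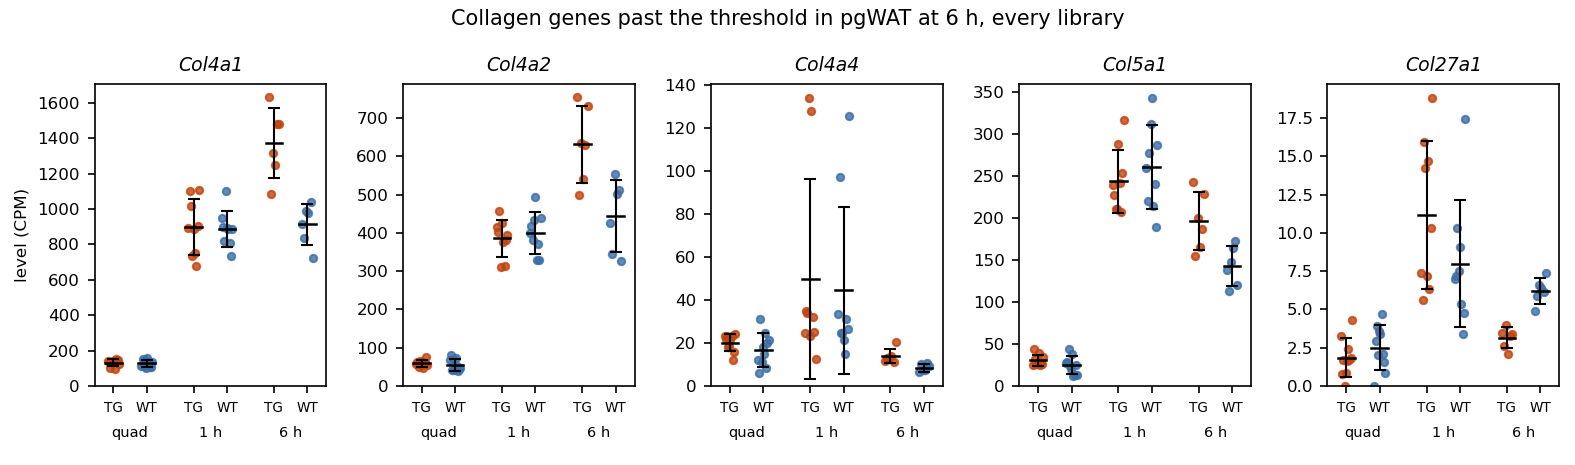
Level in CPM (y axes start at 0) of the 5 genes past the threshold in pgWAT at 6 h, in every library of quadriceps, pgWAT at 1 h and pgWAT at 6 h, TG in orange left of WT in blue, with the mean and SD in black. At 6 h the TG points of Col4a1 lie between 1082 and 1631 CPM and the WT points between 720 and 1039 CPM, while at 1 h the genotypes overlap for all 5 genes.

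None of the 12 other collagens tested at 6 h passed with edgeR, 1 of them (Col6a2) had an unadjusted p under 0.05, and DESeq2 also called Col6a2 (adjusted p = 0.0412). Type VI collagen is built from Col6a1, Col6a2 and a longer chain, usually Col6a3. Col6a1 was at 269 ± 67.7 CPM in TG and 197 ± 52.5 CPM in WT (log2 0.45, SE 0.21, adjusted p = 0.190). Col6a2 was at 336 ± 79.6 CPM in TG and 245 ± 57.9 CPM in WT (log2 0.46, SE 0.18, adjusted p = 0.124), and its ratio to Col6a1 was 1.25 ± 0.0800 in TG and 1.26 ± 0.0973 in WT. Col6a3 had a log2 of 0.22 (SE 0.20, adjusted p = 0.534). Of the chains that can stand in for Col6a3, Col6a5 was at 22.3 ± 4.51 CPM in TG and 33.9 ± 21.8 CPM in WT (log2 -0.60, SE 0.35, adjusted p = 0.309) and Col6a6 had a log2 of 0.02 (adjusted p = 0.953), while Col6a4 had 18 counts and was not tested. Col8a1, a network collagen of vessel walls, had a log2 of -0.24 (SE 0.13, adjusted p = 0.249). The class median was 0.21, with 9 of 12 above 0.

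The libraries differed in overall collagen content within a genotype at 6 h. TG 1 was the highest TG library for Col4a1, Col4a2, Col5a1, Col1a1 and the 3 main type VI chains, and TG 2 was the lowest for Col4a1, Col4a2, Col5a1, Col3a1 and Col6a3. All collagen tags summed to 5026 to 7950 CPM in TG and 4040 to 5917 CPM in WT. Basement membrane collagens summed to 2544 ± 333 CPM in TG and 1828 ± 268 CPM in WT and made up 39.8 ± 2.71% of collagen tags in TG and 36.4 ± 2.05% in WT. Fibrillar collagens made up 45 ± 2.35% in TG and 48.0 ± 1.78% in WT, and the ranges overlapped for both shares. These sums are descriptions and were not tested.

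**Figure D3:**
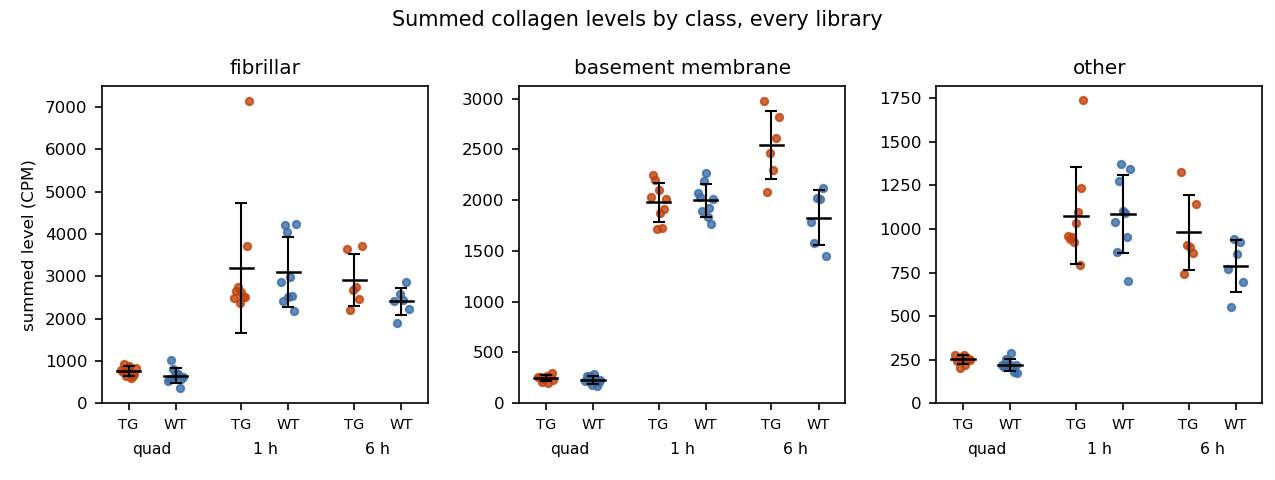
Summed level in CPM of the fibrillar, basement membrane and other collagens in every library (TG in orange left of WT in blue, mean and SD in black, y axes from 0). At 6 h the basement membrane sums are 2080 to 2980 CPM in TG and 1453 to 2120 CPM in WT, and at 1 h 1 TG library, TG 9, reaches a fibrillar sum of 7151 CPM.

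The calls at 6 h differed in how far they rested on single libraries. Col4a1, Col4a4 and Col27a1 passed in all 12 fits that left out 1 library. Col4a2 no longer passed without TG 1, TG 3, TG 5, TG 6, WT 1 or WT 2 (log2 0.44 to 0.58 over the 12 fits, largest adjusted p = 0.0617), and Col5a1 no longer passed without TG 6, WT 1 or WT 6 (log2 0.39 to 0.52, largest adjusted p = 0.0556). Without TG 2, the library with liver transcripts, the 5 calls held and Col5a2 passed too (log2 0.45, adjusted p = 0.0349). Without a filter on low counts only Col4a1, Col4a4 and Col27a1 passed.

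Markers of the cell types that make collagens overlapped between the genotypes at 6 h in their summed levels. Fibroblast markers summed to 2538 to 3430 CPM in TG and 2325 to 2980 CPM in WT, and endothelial markers to 531 to 790 CPM in TG and 543 to 635 CPM in WT. Mural and smooth muscle markers summed to 653 to 975 CPM in TG and 600 to 746 CPM in WT. Their means were 814 ± 121 CPM in TG and 683 ± 61.3 CPM in WT (SD), and only TG 2 (692 CPM) and TG 4 (653 CPM) lay within the WT range. Of 11 marker lists 2 did not overlap: Schwann cell markers were at 26.3 to 32.6 CPM in TG and 34.7 to 44.9 CPM in WT, and skeletal muscle markers at 62.1 to 119 CPM in TG and 21.3 to 50.3 CPM in WT. Every marker of both lists had counts in the set, but only 2 of 4 Schwann cell genes and 2 of 6 muscle genes could be tested. In each list 1 gene passed, so these sums may rest on few genes. Of 48 marker genes tested 7 passed, where 14.4% of all genes did: 3 rose (the fibroblast gene Mfap5, the adipocyte gene Cidec and the muscle gene Acta1) and 4 fell (the endothelial gene Tek, the mural gene Notch3, the mesothelial gene Wt1 and the Schwann cell gene Mbp). Single genes did not speak for their lists. A log2 above 0 was found for 5 of 6 endothelial, 4 of 6 mural, 1 of 7 mesothelial and 1 of 2 Schwann cell genes tested. It was found for 6 of 8 fibroblast, 3 of 6 adipocyte and 2 of 2 muscle genes. Duct epithelium transcripts were at 4.12 to 19.4 CPM in TG and 6.03 to 17.2 CPM in WT. The part of these cell types in the collagen changes was not tested.

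In pgWAT at 1 h no collagen gene passed the threshold. Of 23 tested, 0 passed with edgeR, 0 had an unadjusted p under 0.05, and none had TG and WT values that did not overlap. DESeq2 fitted 44 and called 0. It gave an adjusted p to 14237 of 27814 genes here, and a gene without one could not pass. Over all 11087 genes tested 0.0722% passed with edgeR (0.0541% higher and 0.018% lower in TG), 0.0361% had no overlap and 4.62% had an unadjusted p under 0.05. A log2 above 0 was found for 14 of the 23, with a median of 0.08, against 52.7% and a median of 0.01 over all genes. Col4a1 had a lowest, median and highest level of 680, 890 and 1110 CPM in TG and of 735, 885 and 1101 CPM in WT (log2 0.02, SE 0.10, n = 9 each). Col4a2 had 311, 394 and 457 CPM in TG and 328, 401 and 495 CPM in WT (log2 -0.05, SE 0.09). The genotypes overlapped nearly completely for both. All 23 collagen genes tested had an adjusted p of 0.9998 here. Col5a1 had a log2 of -0.10 (SE 0.11) and Col27a1, with 11.2 ± 4.86 CPM in TG and 7.99 ± 4.13 CPM in WT, one of 0.47 (SE 0.28).

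The abundant fibril genes had log2 values of -0.14 (SE 0.33) for Col1a1, 0.21 (SE 0.32) for Col1a2 and 0.08 (SE 0.23) for Col3a1. Of the basement membrane class Col18a1 had the smallest p, with a log2 of 0.20 (SE 0.12, unadjusted p = 0.112), and Col15a1 was at 531 ± 97.7 CPM in TG and 572 ± 84.5 CPM in WT (log2 -0.11, SE 0.11). Of the other collagens Col8a1 had the smallest p, at 48.0 ± 26.8 CPM in TG and 34.2 ± 11.4 CPM in WT (log2 0.48, SE 0.25, unadjusted p = 0.0733). The type VI chains Col6a2 and Col6a3 had log2 values of -0.21 (SE 0.12) and -0.08 (SE 0.13). Basement membrane collagens summed to 1979 ± 189 CPM in TG and 1998 ± 164 CPM in WT.

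For some collagens the 1 h libraries of a genotype spread widely. Col4a4 had 12.5, 32.2 and 134 CPM as lowest, median and highest level in TG and 14.9, 26.4 and 125 CPM in WT. In the 4 libraries with over 100 CPM of duct epithelium transcripts (TG 4, TG 6, WT 2 and WT 9; 119 to 317 CPM) Col4a4 was at 97.4 to 134 CPM, and in the other 14, with 2.39 to 43.9 CPM of these transcripts, it was at 12.5 to 34.7 CPM. At 6 h, where duct transcripts did not exceed 19.4 CPM, the highest Col4a4 level was 20.2 CPM. In TG 9 the fibril genes Col1a1, Col1a2 and Col3a1 reached 1368, 2579 and 2375 CPM, where the other TG libraries had at most 551, 1140 and 1231 CPM. The same library had the highest sums of fibroblast (5093 CPM), mesothelial (462 CPM) and macrophage markers (1235 CPM) of the set. Without TG 9 the log2 of TG over WT of Col1a2 was -0.17 and with it 0.21, and neither value passed.

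**Figure D4:**
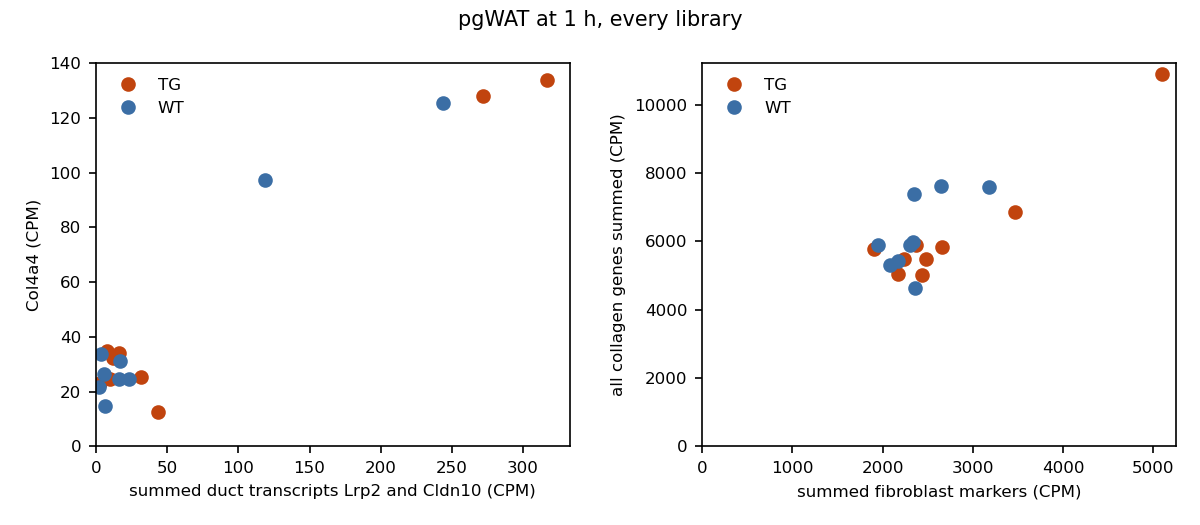
Left, Col4a4 level against the summed duct epithelium transcripts Lrp2 and Cldn10, and right, all collagen genes summed against summed fibroblast markers, in CPM, each point a library of pgWAT at 1 h (TG in orange, WT in blue). Libraries of both genotypes with over 100 CPM of duct transcripts hold the 4 highest Col4a4 levels, and TG 9 stands at 10902 CPM of collagens and 5093 CPM of fibroblast markers.

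Whether TG and WT differed more at 6 h than at 1 h in pgWAT was asked with an interaction term over 13022 genes. The log2 difference between TG and WT was higher at 6 h than at 1 h for Col4a1, by 0.57 (SE 0.16, adjusted p = 0.0278), and for Col4a2, by 0.56 (SE 0.17, adjusted p = 0.0467), and lower for Col27a1, by -1.46 (SE 0.37, adjusted p = 0.0154). These were 3 of 26 collagen genes tested, where 4.21% of all genes passed (1.87% higher and 2.33% lower). Col5a1 and Col6a2 had values of 0.56 and 0.67 and an adjusted p of 0.0658 each, and Col4a4 had 0.54 (SE 0.66, adjusted p = 0.781). The 6 h libraries were made with another kit than the 1 h libraries and sequenced deeper, so time, kit and depth cannot be told apart in this test.

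Col27a1 passed the interaction test in all 30 fits that left out 1 library. Col4a1 no longer passed without TG 1, TG 5, TG 6, WT 2 or WT 6 of the 6 h set (values 0.51 to 0.63 over the 30 fits, largest adjusted p = 0.0652), and Col4a2 passed in 12 of the 30 (0.49 to 0.64, largest adjusted p = 0.104). Leaving out the 9 libraries that stood apart at 1 h left 6 TG and 3 WT there, and TG 2 of the 6 h set was kept. In that fit 0 of 30 collagen genes passed with edgeR and 8 had an unadjusted p under 0.05. Over all 16448 genes tested in that fit 155 passed as higher and 193 as lower, and 2090 had an unadjusted p under 0.05. The values were then 0.62 for Col4a1 (adjusted p = 0.0900), 0.56 for Col4a2 (adjusted p = 0.166) and -1.19 for Col27a1 (adjusted p = 0.111). DESeq2 was not run for the interaction.

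In quadriceps no collagen gene passed either. Of 18 tested with edgeR 0 passed, 2 had an unadjusted p under 0.05, and for none did TG and WT values fail to overlap. Of 43 fitted with DESeq2 likewise 0 passed and 2 had an unadjusted p under 0.05. DESeq2 gave an adjusted p to 11184 of 21711 genes here, and a gene without one could not pass. Over all 8070 genes tested 2.03% passed with edgeR (1.09% higher and 0.942% lower in TG), 0.297% had no overlap and 11.7% had an unadjusted p under 0.05. A log2 above 0 was found for 14 of the 18, with a median of 0.16, against 49.0% and a median of -0.00 over all genes. Col6a3, the long chain of type VI collagen, had a lowest, median and highest level of 82.5, 117 and 138 CPM in TG and 74.6, 90.7 and 140 CPM in WT. The ranges overlapped, with 9 of 10 TG libraries above the WT mean (log2 0.27, SE 0.10, adjusted p = 0.211). Without WT 6, the highest WT library, Col6a3 passed (log2 0.36, adjusted p = 0.0276). Col6a1 had 12.0, 23.8 and 29.4 CPM in TG and 5.68, 17.4 and 26.6 CPM in WT (log2 0.43, SE 0.19, adjusted p = 0.343), and its partner Col6a2 had a log2 of -0.03 (SE 0.18, adjusted p = 0.980).

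The fibril genes that lead muscle collagen also stayed under the threshold. Col1a2 had 233, 336 and 388 CPM as lowest, median and highest level in TG and 141, 258 and 400 CPM in WT (log2 0.25, SE 0.14, adjusted p = 0.537). Col1a1 had a log2 of 0.15 and Col3a1 of 0.26, with 9 of 10 TG libraries above the WT mean for Col3a1. Col4a1 and Col4a2 had log2 values of 0.05 (SE 0.09) and 0.07 (SE 0.13), and Col15a1 one of 0.33 (SE 0.19, adjusted p = 0.537). Col4a4 was at 20.1 ± 3.96 CPM in TG and 16.8 ± 7.81 CPM in WT, and Col5a1 at 30.6 ± 6.56 CPM in TG and 24.5 ± 10.7 CPM in WT, with log2 values of 0.27 and 0.28, neither past the threshold. Fibrillar collagens made up 60.2 ± 3.39% of collagen tags in TG and 58.7 ± 5.10% in WT, a larger share than in pgWAT at 1 h (49.5 ± 6.68% in TG, 49.6 ± 4.85% in WT), as levels with no test. Fibroblast markers summed to 1145 to 1685 CPM in TG and 1220 to 1644 CPM in WT quadriceps, and tendon markers to 173 to 325 CPM in TG and 149 to 270 CPM in WT.

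Collagen levels differed widely between the quadriceps and pgWAT sets. In WT libraries 30 of the 44 genes had a higher mean in both pgWAT sets than in quadriceps. Some of these had means under the level of 3 counts in every set, such as Col2a1 (0 CPM in quadriceps, 0.146 CPM at 1 h, 0.0291 CPM at 6 h). All 17 genes tested everywhere were higher at 1 h in pgWAT than in quadriceps, by 1.48 to 28.9 times with a median of 6.59 times. The sets were scaled separately and are set side by side as levels only, with no test. By the titles only the quadriceps came from clamped mice, and the 6 h libraries were made with another kit. Tissue cannot be told apart from these. Col15a1, which anchors basement membranes to the matrix, had the highest of these ratios, at 572 CPM in pgWAT at 1 h and 19.8 CPM in quadriceps of WT mice. The 3 highest WT means were those of Col1a2, Col1a1 and Col3a1 in quadriceps, of Col3a1, Col4a1 and Col1a2 at 1 h and of Col4a1, Col1a2 and Col3a1 at 6 h. In WT pgWAT at 6 h Col4a1 (913 ± 117 CPM) and Col1a2 (848 ± 112 CPM, SD, n = 6) lay within each other's spread. A group of 8 genes had higher WT means in quadriceps than in both pgWAT sets. Among them Col9a2 was under the level of 3 counts in every set (0.166 CPM in quadriceps, 0 CPM at 1 h, 0.0145 CPM at 6 h). The 3 with the highest quadriceps levels, chosen after their values were seen, were Col22a1, a collagen of the junction between muscle and tendon (11.6 CPM in quadriceps, 1.33 CPM at 1 h, 0.165 CPM at 6 h), Col7a1, the anchoring fibril collagen (6.85, 0.518 and 0.484 CPM), and Col11a1, a minor fibrillar chain (5.38, 0.729 and 0.137 CPM). Their 1 h means were under the highest level of 3 counts there (3.36 CPM). The 1 h mean of Col22a1 rested largely on WT 9 (9.22 CPM), where no other WT library exceeded 1.19 CPM.

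Beyond the collagens, 112 genes in 8 lists of the collagen pathway were followed. In pgWAT at 6 h, 8 rose and 9 fell of 101 tested (16.8%), where 14.4% of all genes passed. At 1 h 0 of 89 passed with edgeR, where 0.0722% of all genes did, and 3 had an unadjusted p under 0.05, where 4.62% of all genes had one. No DESeq2 count was taken for these lists. In quadriceps 1 of 72 passed (1.39%), where 2.03% of all genes did. That gene was P4ha2, a catalytic subunit of the prolyl hydroxylase that stabilises the triple helix, which fell to 40.7 ± 5.75 CPM in TG quadriceps, against 53.6 ± 8.71 CPM in WT (log2 -0.40, SE 0.10, adjusted p = 0.0339).

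At 6 h the crosslinking list had 2 of 6 genes past the threshold, both higher in TG, where 6.88% of all genes rose. Lox, the lysyl oxidase that crosslinks collagen and elastin, was at 81 ± 12.9 CPM in TG and 50.5 ± 10.8 CPM in WT (log2 0.68, SE 0.14, adjusted p = 0.00399), and Tgm2, a transglutaminase, had a log2 of 0.55 (adjusted p = 4.30e-05). Adamts14, a protease that removes the amino-terminal propeptide of procollagens, was at 6.33 ± 1.31 CPM in TG and 1.93 ± 0.828 CPM in WT (log2 1.71, SE 0.25, adjusted p = 1.36e-04), the only one past the threshold of 12 secretion and cleavage genes tested. Of 17 chain modification and folding genes, the lysyl hydroxylase Plod1 rose (0.29, adjusted p = 0.0473) and P3h4, a partner of lysyl hydroxylation in the endoplasmic reticulum, fell (-0.48, adjusted p = 0.0195).

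Of 16 turnover genes 1 rose and 2 fell, and of 7 collagen receptors 1 rose and 3 fell, where 14.4% of all genes passed. Timp3, a matrix-bound inhibitor of metalloproteinases, was at 773 ± 110 CPM in TG and 587 ± 43.7 CPM in WT (log2 0.40, adjusted p = 0.00431). The metalloproteinase genes Mmp11 (6.27 ± 1.74 CPM in TG, 17.2 ± 3.87 CPM in WT, log2 -1.45, adjusted p = 2.59e-05) and Mmp9, a gelatinase that also cleaves type IV collagen (log2 -1.29, adjusted p = 0.0141), fell. Of 7 collagen receptors tested, Adgrg1, an adhesion receptor that binds type III collagen, rose to 140 ± 13.9 CPM in TG, against 74.2 ± 9.73 CPM in WT (log2 0.91, adjusted p = 1.37e-06). The fibrillar collagen receptors Itga11 (-1.09), Ddr2 (-0.38) and Itga1, which also binds type IV collagen (-0.36), fell, with adjusted p-values of 0.00284, 0.00293 and 0.00683.

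None of the 14 basement membrane partners tested and reported here, which include laminins, nidogens and perlecan, passed with edgeR, and 5 had an unadjusted p under 0.05 (median log2 0.11, 8 of 14 above 0). None of 9 small leucine-rich proteoglycans, which coat collagen fibrils, passed with edgeR, and 3 had an unadjusted p under 0.05 (median log2 0.27, 8 of 9 above 0). Over all genes tested at 6 h 26.6% had an unadjusted p under 0.05. DESeq2 counts were not taken for either list. Of 20 genes of TGF-beta signalling, a main driver of collagen transcription, 2 rose and 3 fell (median log2 0.02, 10 of 20 above 0). Over all genes tested 14.4% passed, and the activity of this signalling was not tested. Ccn2, a matricellular target gene, was at 131 ± 64.5 CPM in TG and 55.5 ± 21.7 CPM in WT (log2 1.24, SE 0.36, adjusted p = 0.0423), and the co-receptor Tgfbr3 had a log2 of 0.26 (adjusted p = 0.0258). The inhibitory Smad7 (7.47 ± 1.19 CPM in TG, 18.9 ± 6.36 CPM in WT, log2 -1.34, adjusted p = 1.67e-04), the inhibitory Smad6 (-1.0, adjusted p = 0.00144) and the corepressor Ski (-0.21, adjusted p = 0.0368) fell.

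**Figure D5:**
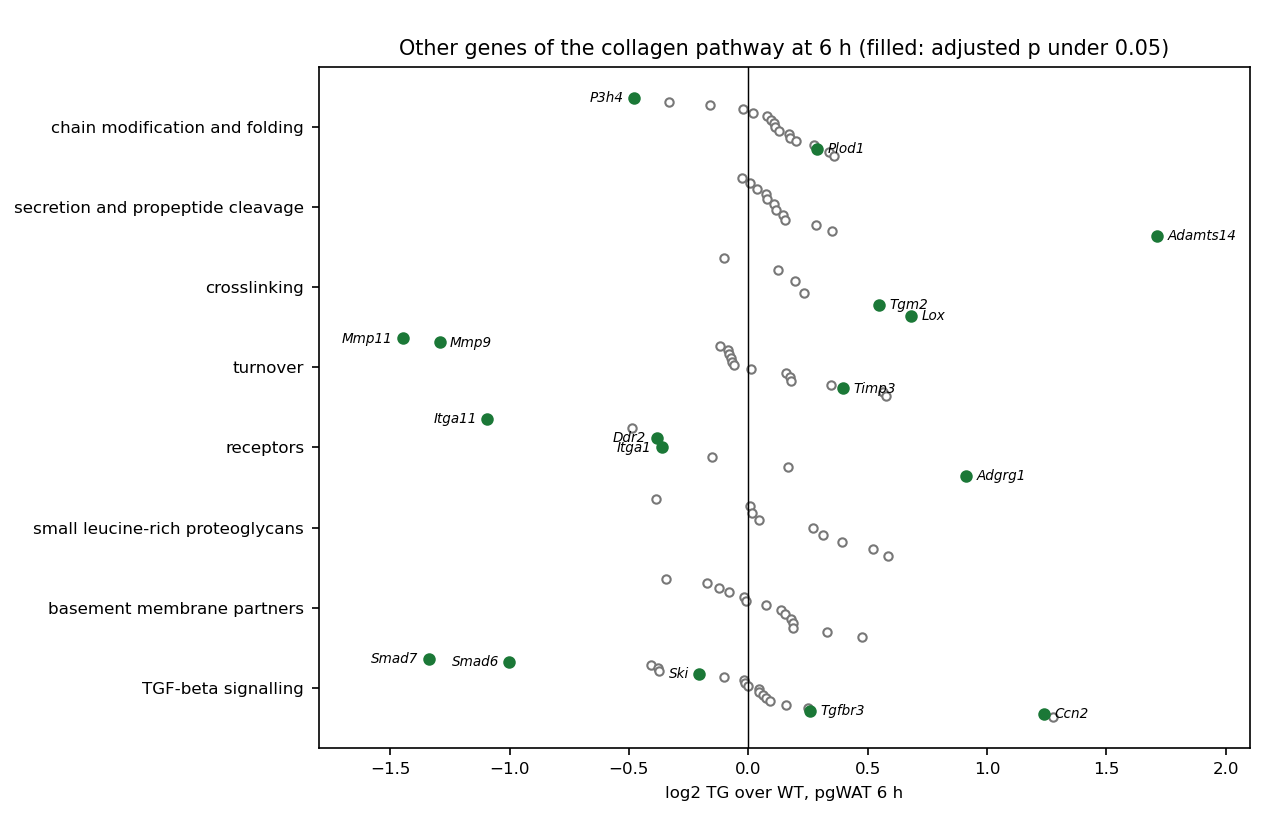
Log2 of TG over WT in pgWAT at 6 h (x axis) of the 101 tested genes of the 8 collagen pathway lists (rows), with named filled points past the adjusted threshold and open points not past it. Lox and Tgm2 of the crosslinking list lie above 0, and Itga11, Ddr2 and Itga1 of the receptors and Mmp11 and Mmp9 of the turnover list lie below it.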

How the data were processed

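Whole-number gene counts of 50 3′ mRNA libraries were analysed as deposited, and per the labels they are raw counts without normalization. The submitters' processing notes name STAR 2.7.10, cutadapt 1.18, UMI-tools 1.1.2 and bcl2fastq 2.20.0.422 and the builds GRCm38 and GRCm39. Per the labels' protocols the quadriceps and 1 h libraries carried molecular identifiers and the 6 h libraries were made with the standard kit. Not given in the sources used here are the counting program, its strand setting, the build of each table and any collapsing of identifiers. Tags of a collagen gene and of a gene overlapping it may therefore not be separated. Col4a1 and Col4a2 overlap each other in GENCODE vM21 only at their 5′ starts (11312805 to 11312826), away from the 3′ ends where tags are read.

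Rows that name no gene (5, 5 and 121 rows, leaving gene rows a mean of 74.9%, 65.3% and 99.8% of counts in quadriceps, pgWAT 1 h and pgWAT 6 h) were left out. Groups followed the titles, also for quadriceps TG 10, whose treatment entry names 1 h. Each set was fitted alone in edgeR 4.0.16 (R 4.3.3) with filterByExpr, TMM scaling and robust quasi-likelihood, TG over WT, and the pgWAT sets together for the interaction. DESeq2 1.42.0, RLE size factors, no filter on low counts, the replicate number, the library number's remainder after division by 8, and leaving out each library were alternatives, and leaving out the libraries that stand apart was added after seeing the data. The fits were tested on simulated data.

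Genes named were those past the threshold, the 3 with the highest level and the 1 with the smallest p per class and set, partner chains, and up to 3 per direction of each pathway list. The members, lists and rule were chosen with earlier results of these data known. Of the pathway lists 1 gene is not reported here.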

Additional observations from a re-analysis of the deposited data

Results flagged for a closer look

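Library levels were compared within genotype by Dixon's criterion for the 22 collagen genes that the naming rule selected, wherever they were tested, and not for the other collagen genes. In 11 of these 108 groups 1 library was far from the rest. Chance gives this in about 1 of 20 groups, a rate that does not allow for the selection of the genes. At 1 h TG 9 was far above the other TG libraries for Col1a1 (1368 CPM), Col1a2 (2579 CPM), Col3a1 (2375 CPM) and Col8a1 (115 CPM), and TG 3 for Col18a1 (144 CPM). WT 9 at 1 h was far above the other WT libraries for Col27a1 (17.4 CPM), Col4a5 (23.7 CPM) and Col6a5 (126 CPM). At 6 h TG 6 was far above for Col4a4 (20.2 CPM) and TG 4 for Col4a6 (5.47 CPM), and WT 6 was far above the other WT libraries for Col6a5 (75.8 CPM).

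The difference between TG and WT differed between the pgWAT times, by the interaction of genotype and time in edgeR, for Col4a1 (0.57 higher at 6 h on the log2 scale, adjusted p = 0.0278), Col4a2 (0.56 higher, adjusted p = 0.0467) and Col27a1 (-1.46, adjusted p = 0.0154).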

How the results depend on the processing

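In pgWAT at 6 h the count of 5 collagen calls was 3 without a filter on low counts and 3 to 6 when a library was left out. There were 3 without TG 6 or WT 1, and 6 with DESeq2 and without TG 2. The interaction count of 3 was 1 to 5 when a library was left out. It was 0 without the libraries that stood apart at 1 h, a fit with fewer samples. In quadriceps the count of 0 was 0 to 1 when a library was left out, the 1 being Col6a3 without WT 6. At 1 h it stayed at 0 under every alternative run, while the count over all genes, 8, was 1 to 23.

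No value past the threshold in either fit changed its sign, but 28 values of 8 results under the threshold did. At 1 h the log2 was -0.10 for Col1a2, -0.17 for Col3a1 and -0.00135 for Col4a1 when the remainder of the library number was a factor, and -0.10 for Col3a1, -0.044 for Col4a1 and -0.14 for Col4a4 without the libraries that stood apart. When a library was left out at 1 h it was -0.50 to 0.059 for Col1a1, -0.17 to 0.33 for Col1a2, -0.18 to 0.16 for Col3a1, -0.024 to 0.063 for Col4a1 and -0.18 to 0.55 for Col4a4. At 6 h it was -0.077 to 0.18 for Col4a6 and -0.062 to 0.13 for Col6a6. In quadriceps Col6a2 was at 0.0041 with the replicate block and -0.13 to 0.073 when a library was left out.

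With the replicate number as a replicate block the collagen calls were 0 in quadriceps, 0 at 1 h, 5 at 6 h and 3 in the interaction. Same-numbered TG and WT libraries deviated together, with a correlation over 0.1, in 3 of 10 pairs in quadriceps, 4 of 9 at 1 h and 1 of 6 at 6 h, so the numbers were not taken to pair the libraries. In no set could 16 of 44 collagen genes be tested, and at these counts low expression and too little depth cannot be told apart. The cause of the other changes was not tested.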
